A study of Homo sapiens with 10 samples.

Results

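Of the 34567 genes in the table, 928 carry the name of another gene followed by -AS and a number, the usual name of an RNA transcribed from the opposite strand of that gene, and 120 of these had read counts that summed to at least 500 over the 10 libraries. The 120 genes were therefore chosen by a measured value, their summed count, which ran from 500 to 38217 (median 1050.5). Just inside the limit were UBL7-AS1 with 520 counts, SGMS1-AS1 with 503 and STARD7-AS1 with 500. Just outside were ZNF790-AS1 with 489, SLFNL1-AS1 with 479 and SH3RF3-AS1 with 473. For 118 of the 120, the gene named before -AS was also in the table, giving 116 distinct partners, because DLGAP1 and PAXIP1 each have 2 antisense genes. ADIRF-AS1 and RPARP-AS1 had no partner there.

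The libraries came from a pair of established human glioma cell lines grown in medium with serum. SNB19 cells received a scramble siRNA (3 libraries, the control) or an siRNA against MEOX2 (3 libraries, the knockdown). U87 cells received a lentivirus with the empty vector (2 libraries) or with MEOX2 (2 libraries, the overexpression). MEOX2 encodes a homeobox transcription factor. Groups were taken from the sample titles, since the treatment labels of the U87 libraries name MEOX2, MEOX3, MEOX4 and MEOX5 in turn. The harvest time and the siRNA used were not given in the labels. Each condition stands for 1 cell line, and nothing in the labels says that the libraries of a group came from separate cultures, so every p-value measures only the spread between these libraries.

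Antisense RNAs are made from the strand that faces a gene. Some start at the gene's own promoter and run away from it, some run across the gene's start or end, and some lie inside an intron. Individual antisense RNAs are known to act on the chromatin, splicing, translation or stability of the facing gene, whereas many have no known function. The counting of these libraries bears on what can be seen of them, because the library kit does not mark strand and no strand setting was stated. In the annotation that fits the table (GENCODE v29, GRCh38), 710 genes lie wholly within exons of the opposite strand, and 0 of them had a count in any library. Among genes annotated as antisense, 69.6% of the 2374 with no exon base facing another exon had a count, against 5.22% of the 402 with over 90% of their exon bases facing one. The counts thus behaved as though strand was ignored and reads on shared bases were dropped, and each value below rests on the exon bases a gene does not share. Reads from unspliced partner RNA cannot be told apart from antisense reads where an antisense exon lies in a partner's intron.

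By position, 49 of the 118 pairs overlapped at their starts, 25 overlapped at their ends, 18 stood head to head without overlap (starts 1 to 1376 bases apart), 12 antisense genes lay inside the partner, 13 partners lay inside the antisense gene, and IGFL2-AS1 stood tail to tail with IGFL2. No exon base was shared with the partner in 33 pairs. GENCODE lists 78 of the 120 as antisense, 22 as processed transcript, 16 as lincRNA, 2 as transcribed pseudogene, 1 (KLHL30-AS1) as to be tested experimentally and 1 (NCBP2-AS2) as protein coding.

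The head to head pairs show how close these genes can lie. The windows below run from 250 bases before to 50 bases after the RefSeq start of the antisense gene (GRCh38.p14), on its own strand, 5′ to 3′. The capitals mark the bases from the annotated start of the partner to that of the antisense gene, both included, so that the partner reads leftward from the left edge of the capitals and the antisense gene rightward from their right edge. In 6 head to head pairs with a window here both starts fall in it and both genes passed the test after MEOX2 knockdown. The 4 with the widest space between the starts are shown, of which SRP14 and SCAMP1 changed in the opposite direction to their antisense gene and ZNF674 and ZNF528 in the same direction. The other 2 are NCBP2-AS2, in the opposite direction, and COX10-AS1, in the same direction. SRP14-AS1 is called SRP14-DT in RefSeq.
SRP14-AS1 (chr15:40039061-40039360, plus strand): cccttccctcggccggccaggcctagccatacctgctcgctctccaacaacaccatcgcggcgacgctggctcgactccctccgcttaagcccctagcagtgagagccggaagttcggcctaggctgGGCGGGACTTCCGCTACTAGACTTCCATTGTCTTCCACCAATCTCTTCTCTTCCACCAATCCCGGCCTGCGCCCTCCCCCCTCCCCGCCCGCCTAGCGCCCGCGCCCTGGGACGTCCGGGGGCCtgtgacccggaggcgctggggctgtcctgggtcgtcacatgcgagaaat
SCAMP1-AS1 (chr5:78360492-78360791, minus strand): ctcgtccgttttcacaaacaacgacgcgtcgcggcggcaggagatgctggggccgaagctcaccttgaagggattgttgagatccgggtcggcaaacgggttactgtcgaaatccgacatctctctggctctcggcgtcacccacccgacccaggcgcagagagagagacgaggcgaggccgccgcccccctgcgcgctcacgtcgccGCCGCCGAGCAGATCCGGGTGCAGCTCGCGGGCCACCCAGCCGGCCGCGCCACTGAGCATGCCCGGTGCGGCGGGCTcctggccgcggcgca
ZNF674-AS1 (chrX:46545240-46545539, plus strand): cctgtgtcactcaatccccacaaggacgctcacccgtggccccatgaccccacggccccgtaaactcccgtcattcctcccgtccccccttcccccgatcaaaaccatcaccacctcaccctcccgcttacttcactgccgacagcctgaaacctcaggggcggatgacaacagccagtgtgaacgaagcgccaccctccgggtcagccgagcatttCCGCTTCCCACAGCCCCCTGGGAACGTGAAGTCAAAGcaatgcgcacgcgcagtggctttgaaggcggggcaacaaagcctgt
ZNF528-AS1 (chr19:52397708-52398007, minus strand): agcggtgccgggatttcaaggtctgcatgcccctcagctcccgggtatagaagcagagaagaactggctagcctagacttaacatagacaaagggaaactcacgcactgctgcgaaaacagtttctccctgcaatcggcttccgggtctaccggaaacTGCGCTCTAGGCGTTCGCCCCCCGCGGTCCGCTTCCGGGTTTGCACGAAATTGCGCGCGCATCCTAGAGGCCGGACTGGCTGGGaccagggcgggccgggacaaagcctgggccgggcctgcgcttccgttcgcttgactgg
The capitals span 124, 77, 37 and 84 bases in that order, and the windows hold 26, 41, 20 and 26 CG dinucleotides. A window was found for 102 of the 120 antisense genes, with a median of 23 CG dinucleotides and 64.3% G and C, against 14 and 58.7% over all 35116 windows of the table. The motif TAATTA, a core that many homeodomain proteins bind and that reads the same on both strands, was in a window of 1 of the 102 genes (ASH1L-AS1, 0.98%), against 5.95% of the 27305 genes with a window. For some genes the nearest RefSeq start lay far from the GENCODE start, among them PAX8-AS1 (24005 bases), VLDLR-AS1 (20986) and DHRS4-AS1 (33727). Windows of such genes need not cover the start of the gene that was counted.

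Total counts ran from 12533775 to 16560324 per library. MEOX2 itself had 249, 224 and 275 counts in the scramble libraries of SNB19 and 54, 40 and 49 after the siRNA (log2 fold change -2.41 ± 0.14 (SE), adjusted p = 1.35e-11 by edgeR). In U87 it had 0 counts in both empty-vector libraries and 4999 and 5308 after overexpression. Log2 counts of libraries of one group correlated at 0.989 to 0.992, except those of the 2 empty-vector libraries, at 0.944. Empty-vector library 1 stood apart, with a TMM scaling factor of 0.701, against 0.941 to 1.14 in the other 9. Of 9 glioma and neural markers, VIM and CD44 had 1839 to 57276 counts in every library, GFAP had 17 to 75, and S100B, AQP4 and PTPRZ1 had at most 6. SOX2 had 483 to 528 counts in the scramble libraries of SNB19 and 0 and 1 in the empty-vector libraries of U87. Of the 6 that were tested after knockdown, 5 fell (VIM -1.01, CD44 -1.18, SOX2 -1.19, NES -1.20 and GFAP by the most) and OLIG2 rose (0.50). The leukocyte genes PTPRC, CD68 and AIF1 had at most 4 counts in any library. The endothelial genes PECAM1 (437 to 553 counts) and CDH5 (50 to 73) were present in the scramble libraries of SNB19 and fell after MEOX2 siRNA to 65 to 104 and 0 to 6. The part of these markers in the results was not tested. In such bulk RNA, fewer cells of a type and less RNA per cell cannot be told apart.

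Per length, the antisense genes were low. Their mean level over the 10 libraries ran from 0.275 to 68.8 FPKM (fragments scaled to exon length and library size), with a median of 2.24, against 5.27 for the partners, and 7 of 120 passed 10 FPKM. The antisense gene had the higher mean FPKM in 43 of 118 pairs. The FPKM fit the full exon length (13666 of 13669 genes checked), although reads on shared bases seem to have been dropped. Genes that share exon bases thus read low, and the partners, unlike the antisense genes, were not chosen by count. LRRC75A-AS1, the host transcript of small nucleolar RNAs, was highest at 68.8 FPKM. Next were NCBP2-AS2 at 52.2 FPKM, FGD5-AS1 at 20.03, PAX8-AS1 at 14.8, RNASEH1-AS1 at 12.9, ARRDC1-AS1 at 12.7 and URB1-AS1 at 10.1. TBX2-AS1 (9.53), ZMIZ1-AS1 (9.13) and TRIM52-AS1 (8.51) completed the 10 highest. Together the 120 genes took 0.145% to 0.147% of all counts in the scramble libraries, 0.190% to 0.195% after MEOX2 siRNA, 0.144% and 0.145% in the empty-vector libraries and 0.286% and 0.281% after MEOX2 overexpression. Much of the difference in U87 lay in PAX8-AS1. Without the 3 genes highest in summed count, PAX8-AS1 among them, the U87 shares were 0.114% and 0.103%, and 0.132% and 0.126% with MEOX2.

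To find out how the antisense genes behaved when MEOX2 was depleted, the 3 knockdown libraries were compared with the 3 scramble libraries. Of the 120 antisense genes, 117 had enough counts to be tested, all but DBH-AS1, KLHL30-AS1 and MAGI2-AS3. By edgeR's quasi-likelihood test with Benjamini-Hochberg adjustment over all 15525 genes tested, 55 rose, 10 fell and 52 did not pass. The share that rose was 47.0%, against a background of 27.4% of all genes tested, and the share that fell was 8.55%, against 28.5%. In either direction 55.6% passed, against 55.9% of all genes. Their median log2 fold change was 0.29, against 0.01 for all genes tested. Of the 106 partners tested, 29 rose and 34 fell, with a median of -0.06. In a fit of all 10 libraries the count of antisense genes that passed was 25 in place of 65, where 15.7% of all genes passed, and by the rule of an unadjusted p under 0.05 and a log2 fold change over 1 it was 18, against 10.8% of all genes.

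**Figure D1:**
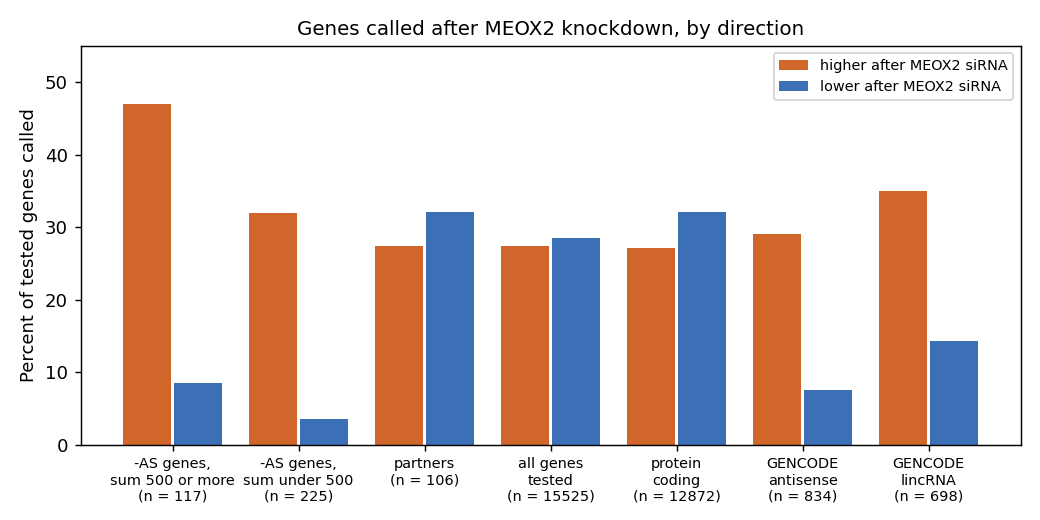
Percent of tested genes called higher (orange) or lower (blue) after MEOX2 siRNA in SNB19, by edgeR at an adjusted p under 0.05, for genes named -AS with a summed count of 500 or more or under 500, their partners, all genes, and 3 GENCODE types (number tested under each). The higher bar exceeds the lower one for both sets of -AS genes, 47.0% against 8.55% and 32.0% against 3.56%, and the bars are near each other for the partners and for all genes.

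More genes rose than fell in other noncoding classes as well. Of 834 genes of the GENCODE antisense type that were tested, 242 rose (29.02%) and 63 fell (7.55%). Of 698 lincRNA genes 244 rose (34.96%) and 100 fell (14.3%), while of 12872 protein-coding genes 3492 rose and 4130 fell. The share of antisense-type genes that rose was thus near the 27.4% of all genes tested and below the 47.0% of the antisense genes studied here. The antisense type differed from all genes mainly in how few genes fell, against 28.5% of all genes. The share of all counts on antisense-type genes was 0.278% to 0.294% in the scramble libraries and 0.359% to 0.385% after MEOX2 siRNA, with no overlap. For lincRNA genes the shares were 0.360% to 0.382% and 0.456% to 0.482%. What moved with these shares was not tested. More rose than fell both with and without partner introns over the exons. Of 67 antisense genes with under 10% of their exon bases there, 34 rose (50.7%) and 6 fell. Of 31 with over 50% there, 15 rose (48.4%) and 2 fell. Of the 17 between these limits, 4 rose (23.5%) and 2 fell, with a median log2 fold change of 0.08. Among all genes tested 27.4% rose. By position, 14 of 18 head to head antisense genes rose and 1 fell (OTUD6B-AS1), against 18 and 5 of the 48 that overlap the partner's start.

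GABPB1-AS1, which faces a subunit of the GA-binding transcription factor, had the smallest adjusted p. Its level was 45.2, 47.8 and 43.9 CPM (counts relative to library size, scaled by TMM over the 10 libraries, as are all CPM here) in the scramble libraries and 113, 117 and 119 after MEOX2 siRNA. The groups did not overlap (log2 fold change 1.37 ± 0.06 (SE), adjusted p = 1.41e-13). CCDC18-AS1 had the largest rise of the 117, from 5.69, 4.87 and 5.78 CPM to 20.5, 21.4 and 21.9 (log2 fold change 1.98 ± 0.11 (SE), adjusted p = 9.80e-12). TMEM147-AS1, across from a gene for a membrane protein of the endoplasmic reticulum, went from 8.97, 9.54 and 10.1 CPM to 23.9, 26.6 and 24.7 (log2 fold change 1.41 ± 0.10 (SE), adjusted p = 2.50e-10). All 3 were clear of their controls in every library, which their choice by a small adjusted p favours.

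DLGAP1-AS2 and DLGAP1-AS1 both lie in an intron of DLGAP1, which encodes a scaffold protein of the synapse and was at most 0.183 CPM in the SNB19 libraries. DLGAP1-AS2 had 8.11, 6.33 and 5.90 CPM in the scramble libraries and 18.6, 21.8 and 19.0 after the siRNA (log2 fold change 1.55 ± 0.12 (SE), adjusted p = 1.57e-09). DLGAP1-AS1 rose less, from 7.65, 6.61 and 6.99 to 9.54, 9.72 and 10.9 CPM (log2 fold change 0.52 ± 0.13 (SE), adjusted p = 0.00177). EPB41L4A-AS1, with a partner at most 0.698 CPM in SNB19, rose from 17.6, 16.7 and 16.5 to 33.4, 29.8 and 32.3 CPM (log2 fold change 0.93). For these 3 genes the scramble and knockdown libraries were apart, and the counts of the partner were low. EPB41L4A-AS1 shares 1659 exon bases with EPB41L4A, where reads seem to have been dropped, so that partner can read low. The part of partner RNA in these changes was not tested.

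The other genes among the 15 smallest adjusted p values were ZNF528-AS1 and ZNF436-AS1, opposite zinc finger genes, with log2 fold changes of 1.33 and 1.60, RPARP-AS1 (1.04), CKMT2-AS1 (1.16), NIFK-AS1 (1.20), SLC16A1-AS1 (0.91), ZMIZ1-AS1 (0.82) and THAP9-AS1 (0.75), all higher. CKMT2 encodes a mitochondrial creatine kinase, NIFK a nucleolar protein and SLC16A1 a monocarboxylate transporter. FGD5-AS1 and LOXL1-AS1 were the 2 of the 15 that fell. FGD5-AS1 had 80.6, 75.5 and 82.2 CPM in the scramble libraries and 53.2, 53.1 and 53.3 after the siRNA (log2 fold change -0.56 ± 0.06 (SE), adjusted p = 1.29e-07), while FGD5 was at most 0.174 CPM in SNB19. The groups stood apart in every one of the 15 genes, which their choice by adjusted p from the same libraries favours.

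**Figure D2:**
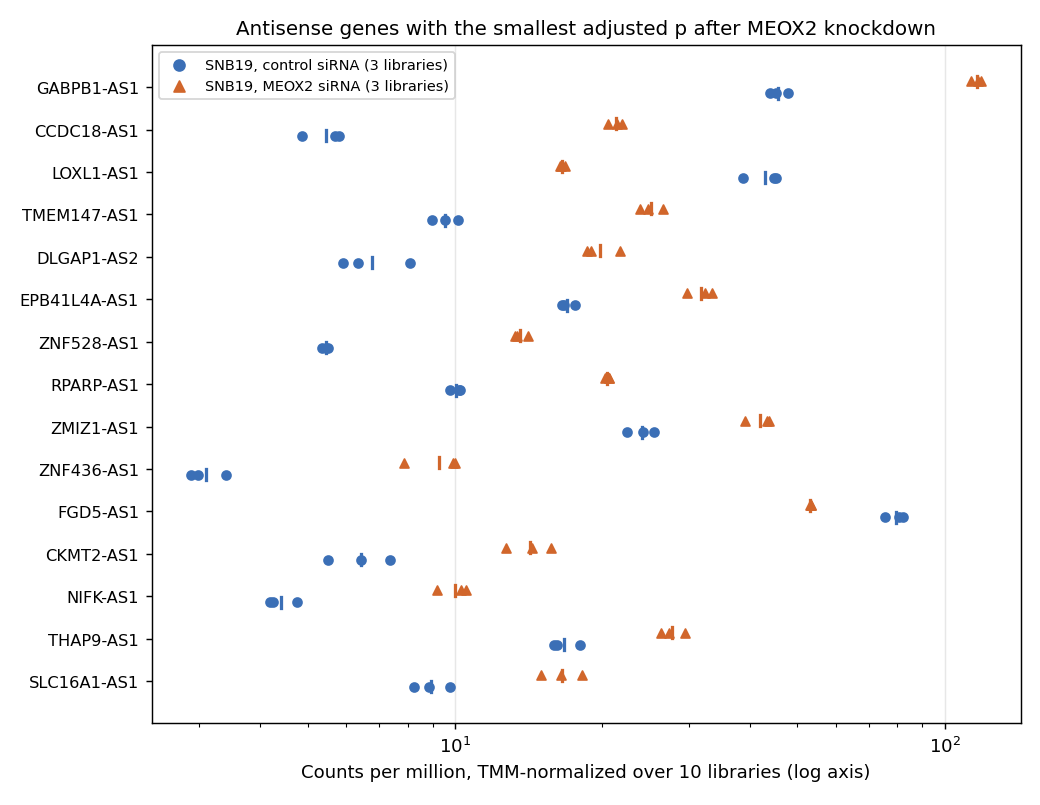
CPM (log axis) of the 15 antisense genes with the smallest adjusted p after knockdown in the 3 scramble (circles) and 3 MEOX2 siRNA libraries (triangles) of SNB19, with group means as vertical bars. LOXL1-AS1 and FGD5-AS1 lie to the left of their controls and the other 13 genes lie to the right. The groups overlap in 0 of the 15, which their choice by adjusted p favours.

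Besides FGD5-AS1 and LOXL1-AS1, the genes that fell were CD27-AS1, TPT1-AS1, ZBED5-AS1, SVIL-AS1, PAXIP1-AS2, IGFL2-AS1, NR2F1-AS1 and OTUD6B-AS1. Of these, TPT1-AS1 fell by 1.07 on the log2 scale, while TPT1, which encodes the translationally controlled tumor protein, did not pass (-0.07). Among the 10 genes highest in FPKM, 7 rose (LRRC75A-AS1, NCBP2-AS2, RNASEH1-AS1, ARRDC1-AS1, TBX2-AS1, ZMIZ1-AS1 and TRIM52-AS1) and FGD5-AS1 fell. LRRC75A-AS1 went from 267, 263 and 250 CPM to 328, 305 and 318, a log2 fold change of 0.30. ARRDC1-AS1 rose by 0.25, a call that was lost when scramble library 3 (0.19) or knockdown library 1 (0.19) was left out. PAX8-AS1 and URB1-AS1 did not pass, with 0.07 and -0.05.

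The comparison of each antisense gene with its partner asked whether both moved together. In 105 pairs with both genes tested, 58 had the same sign (55.2%, exact 95% interval 45.2% to 65.0%, which treats pairs as independent), and the log2 fold changes had a Pearson correlation of 0.21 and a Spearman correlation of 0.14, given as a description over pairs that share the same 6 libraries. Other opposite-strand neighbours in the table were counted the same way, and 52.7% of 897 head to head pairs and 55.5% of 2849 overlapping pairs had the same sign. Both genes passed the test in 37 pairs, where 14 rose together, 6 fell together and in 17 the antisense gene rose while the partner fell. In 0 pairs did the antisense gene fall while the partner rose. Few antisense genes fell at all, 10 of the 117 tested and 6 in these 37 pairs, so the 0 has a small base. The opposite changes were 45.9% of the 37, against 46.2% of the 292 other head to head pairs with both genes called and 37.4% of the 756 other overlapping pairs. Of the 30 pairs without shared exon bases, both genes passed in 12, 5 in the same and 7 in opposite directions.

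**Figure D3:**
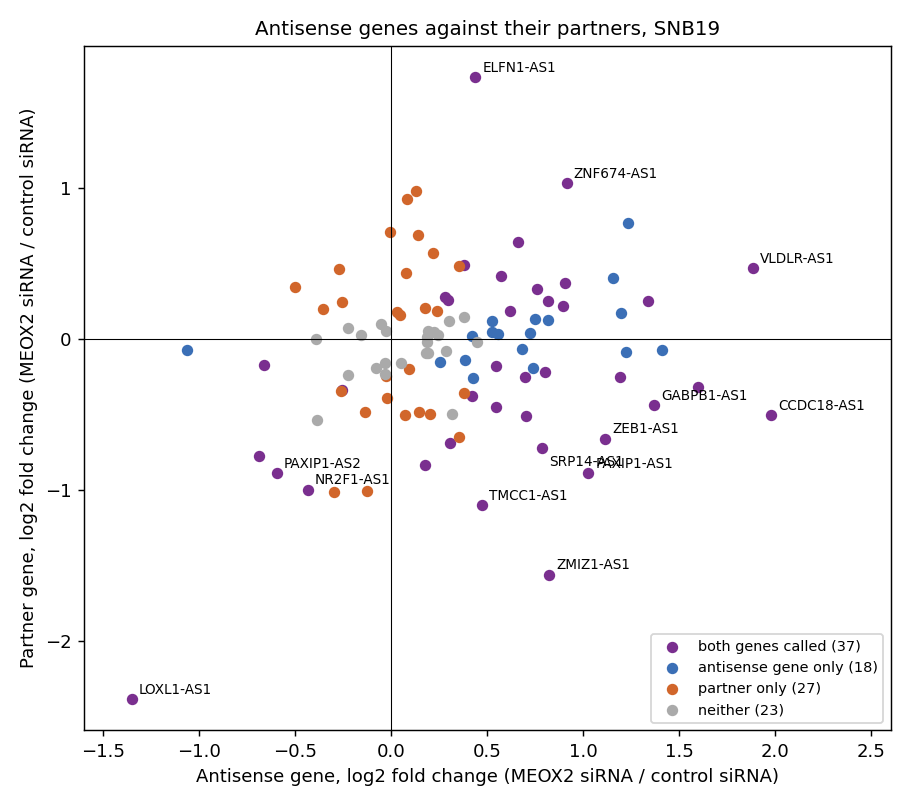
Log2 fold change after MEOX2 siRNA of each antisense gene (horizontal) and its partner (vertical) for 105 pairs in SNB19, coloured by which gene passed an adjusted p under 0.05. The lower right quadrant includes the 17 pairs whose antisense gene rose as the partner fell, and LOXL1-AS1 with LOXL1 lies far out at the lower left.

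ZMIZ1-AS1 and ZMIZ1, a PIAS-like transcriptional coactivator, start 1140 bases apart and share no exon base. ZMIZ1-AS1 had 22.5, 24.2 and 25.5 CPM in the scramble libraries and 39.0, 43.3 and 43.8 after the siRNA (log2 fold change 0.82 ± 0.08 (SE), adjusted p = 3.55e-08). ZMIZ1 had 202, 202 and 212 CPM and 63.0, 75.2 and 68.4 (log2 fold change -1.56 ± 0.06 (SE), adjusted p = 5.90e-14). The log2 ratio of antisense to partner was higher after the siRNA by 2.38, and the ratios of the groups did not overlap. The exact two-sided permutation p was 0.1, the smallest that 3 against 3 libraries allow, as it was for every pair whose ratios did not overlap. Of 112 pairs with a count in all 6 libraries for both genes, the ratio was higher without overlap in 52 and lower in 11, and since no pair could go below 0.1, none can pass an adjustment over the 112. The ratio separated the groups, in either direction, in 56.3% of the 112 pairs, against 51.3% of 1158 other head to head pairs and 39.9% of 4283 other overlapping pairs.

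Head to head pairs with opposite changes included SRP14 and SCAMP1, whose windows are printed above. SRP14-AS1 went from 5.81, 5.29 and 5.18 CPM to 9.19, 9.23 and 9.39 (log2 fold change 0.79 ± 0.13 (SE), adjusted p = 3.84e-05), while SRP14, a subunit of the signal recognition particle, went from 170, 174 and 162 to 106, 99.7 and 97.9 (log2 fold change -0.72 ± 0.05 (SE), adjusted p = 3.50e-10). SCAMP1-AS1 rose by 0.70 and SCAMP1, a protein of secretory membranes, changed by -0.51. TMCC1-AS1 rose by 0.47 and TMCC1 changed by -1.10. PAXIP1 has an antisense gene at each end. PAXIP1-AS1, at its start, rose from 4.89, 6.40 and 4.94 to 10.9, 11.5 and 10.1 CPM (log2 fold change 1.03 ± 0.14 (SE), adjusted p = 2.60e-06). PAXIP1-AS2, at its end and with 87.6% of its exon bases in PAXIP1 introns, fell from 4.77, 4.04 and 4.94 to 2.79, 3.18 and 3.05 CPM (log2 fold change -0.60 ± 0.19 (SE), adjusted p = 0.00946). PAXIP1, an adaptor of histone methyltransferase complexes, fell as PAXIP1-AS2 did (log2 fold change -0.89 ± 0.09 (SE), adjusted p = 1.08e-07).

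Opposite changes were also found in pairs that overlap. GABPB1 changed by -0.44 against the rise of GABPB1-AS1, and CCDC18 by -0.50 against that of CCDC18-AS1, a difference in the log2 ratio of 2.49 in a pair that shares 72 exon bases. ZEB1-AS1 rose from 2.53, 2.30 and 2.29 to 5.76, 4.83 and 4.66 CPM (log2 fold change 1.11 ± 0.19 (SE), adjusted p = 4.21e-05). ZEB1, a transcription factor of the epithelial-mesenchymal transition, went from 36.3, 33.5 and 35.6 to 20.01, 23.9 and 22.2 CPM (log2 fold change -0.66 ± 0.08 (SE), adjusted p = 1.35e-06). In both genes the scramble and knockdown libraries did not overlap. For TMEM147-AS1 the partner TMEM147 did not pass the test (-0.07), and THAP9, NIFK and CKMT2, with 0.14, 0.17 and 0.41, did not either.

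LOXL1-AS1 and LOXL1, an enzyme that crosslinks elastin and collagen, fell together. LOXL1-AS1 had 38.7, 45.2 and 44.8 CPM in the scramble libraries and 16.8, 16.5 and 16.4 after the siRNA (log2 fold change -1.35 ± 0.08 (SE), adjusted p = 3.24e-11). LOXL1 had 220, 235 and 224 CPM and 50.4, 39.7 and 38.4 (log2 fold change -2.38 ± 0.07 (SE), adjusted p = 7.61e-16). Both were apart in all 6 libraries, and the log2 ratio of antisense to partner was higher by 1.04 after the siRNA, with the partner falling further. NR2F1-AS1 and NR2F1, a nuclear receptor, also fell (-0.44 and -0.996). Pairs that rose together included VLDLR-AS1 and the lipoprotein receptor VLDLR (1.88 and 0.47), SLC16A1-AS1 and SLC16A1 (0.91 and 0.37), ZNF674-AS1 and ZNF674 (0.91 and 1.03) and ZNF528-AS1 and ZNF528 (1.33 and 0.25).

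The gene lists were small, made by hand and not complete. Of 31 names listed as antisense to transcription factors, 6 were among the 120, of which ZEB1-AS1, TBX2-AS1 and ZNF337-AS1 rose, NR2F1-AS1 fell and PAX8-AS1 and ZNF503-AS2 did not pass. Their median log2 fold change after knockdown was 0.43. The list leaves out some of the 120 with such partners, among them FOXD2-AS1, LBX2-AS1, MSC-AS1 and GABPB1-AS1. Of 25 listed as antisense to matrix, secreted and adhesion genes, 3 were among the 120. TGFB2-AS1 rose (0.68) and LOXL1-AS1 and CD27-AS1 fell. The median of -1.09 is the value of CD27-AS1 itself, which had 8 to 23 counts in the SNB19 libraries, so it describes no class. A mixed list of 27 names, drawn up around proteasome, ribosome, RNA and mitochondrial genes, held 14 of the 120, of which 5 rose, 2 fell and 7 did not pass, with a median of 0.10. Several of the 14 partners are none of these, among them FGD5, GABPB1, TMPO, OIP5, MAPKAPK5 and THAP9, and SRP14-AS1, COX10-AS1 and CKMT2-AS1 are not on the list, so its counts describe no one class. No antisense gene of a HOX cluster reached the count limit under this form of name. All antisense genes tested had a median of 0.29.

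To see how the antisense genes behaved when MEOX2 was raised, the 2 overexpression libraries of U87 were compared with the 2 empty-vector libraries. Of the 120, 111 were tested and 0 passed by edgeR's quasi-likelihood test, as 0 of all 14180 genes did (0%). The smallest adjusted p of any gene was 0.123, and MEOX2, with 0 counts in both controls, had that value. At an unadjusted p under 0.05 there were 24 antisense genes and 2643 of all genes (18.6%). DESeq2 called 8 antisense genes and 6.34% of all genes with an adjusted p, and limma on log2 FPKM called 0 and 0.0276%. With empty-vector library 1, the one that stood apart, left out, edgeR called 58 of 112, 39 higher and 19 lower, against 47.4% of all genes. With library 2 left out it called 68 of 111, 28 higher and 40 lower, against 71.2% of all genes. In such a fit the lone control is assumed to vary as the overexpression libraries do.

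Because of this, the genes called in the same direction in both of these fits were taken as a further rule, chosen after the values were seen. By that rule 35 of 111 antisense genes were called (31.5%), 20 higher and 15 lower, against 31.1% of all 14591 genes, 16.1% higher and 15% lower. Some antisense genes, like some of the other genes, were called in opposite directions in the 2 fits. The share of antisense genes was thus near the background. The genes named next all belong to the 35. Their overexpression libraries lay outside the range of both controls, which the rule itself favours and which adds no support.

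PAX8-AS1 had the highest log2 fold change of the 35 in the fit of all 4 libraries and without library 1, while FBXL19-AS1 was higher without library 2 (3.72). The level of PAX8-AS1 was 109 and 87.9 CPM in the empty-vector libraries and 1233 and 1240 with MEOX2, or 1236 and 1162 counts against 14807 and 17159. The edgeR fit gave a log2 fold change of 3.63 ± 0.35 (SE) and an adjusted p of 0.123, and 3.82 and 3.50 in the fits without library 1 and 2. Without the 3 antisense genes highest in summed count, the share of counts on the others was 0.114% and 0.103% in the controls and 0.132% and 0.126% with MEOX2. PAX8, a paired-box transcription factor, had 38.04 and 20.95 CPM in the controls and 45.04 and 38.03 with MEOX2, and the groups overlapped (0.47, adjusted p = 0.511). Introns of PAX8 hold 95.5% of the exon bases of PAX8-AS1, and the log2 ratio of PAX8-AS1 to PAX8 went from 1.79 ± 0.39 to 4.90 ± 0.18 (SD, n = 2 in each group), a difference of 3.11 (exact permutation p = 0.333, the smallest that 2 against 2 allow). In SNB19, PAX8-AS1 had 6.53 to 7.91 CPM in all 6 libraries.

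Ordered by the smaller of the changes in the 2 fits, the next highest were TM4SF19-AS1, SLC16A1-AS1, LBX2-AS1 and VLDLR-AS1. TM4SF19-AS1 went from 2.29 and 2.57 CPM to 14.2 and 10.4, and SLC16A1-AS1 from 13.4 and 15.2 to 47.1 and 44.4. SLC16A1 had 132 and 201 CPM in the controls and 144 and 156 with MEOX2, inside the range of its controls. LBX2-AS1 went from 4.50 and 3.25 to 13.7 and 13.4 CPM, and VLDLR-AS1 from 4.59 and 3.25 to 9.24 and 10.0. In the main fit their log2 fold changes were 2.31, 1.66, 1.78 and 1.28, none of which passed (adjusted p 0.143 to 0.210 by edgeR).

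By the same order the lowest were TMPO-AS1, DBH-AS1, RUSC1-AS1, RPARP-AS1 and LOXL1-AS1. TMPO-AS1, across from a gene of the nuclear lamina, had 3.53 and 2.34 CPM in the controls and 0.333 and 0.361 with MEOX2. RUSC1-AS1 had 5.30 and 5.82 and 1.50 and 1.45. LOXL1-AS1 had 47.9 and 38.5 and 15.3 and 17.4, while LOXL1 went from 146 and 141 CPM to 11.1 and 13.7 (log2 fold change -3.55). In the fit of all 4 libraries, TBX2-AS1 (-2.37) and ZBED5-AS1 (-1.98) were lower than LOXL1-AS1 (-1.42). In TMPO-AS1, RUSC1-AS1, LOXL1-AS1 and LOXL1 both overexpression libraries lay below both controls. TBX2-AS1, opposite the T-box factor TBX2, had 78.6 and 16.0 CPM in the controls and 8.33 and 10.4 with MEOX2, and its log2 fold change was -0.76 without control library 1 and -3.06 without library 2, so its size rests on library 1. DBH-AS1 (32.0 and 11.6 against 1.91 and 2.31) and RPARP-AS1 (10.4 and 2.65 against 0.916 and 1.30) had controls that differed likewise.

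**Figure D4:**
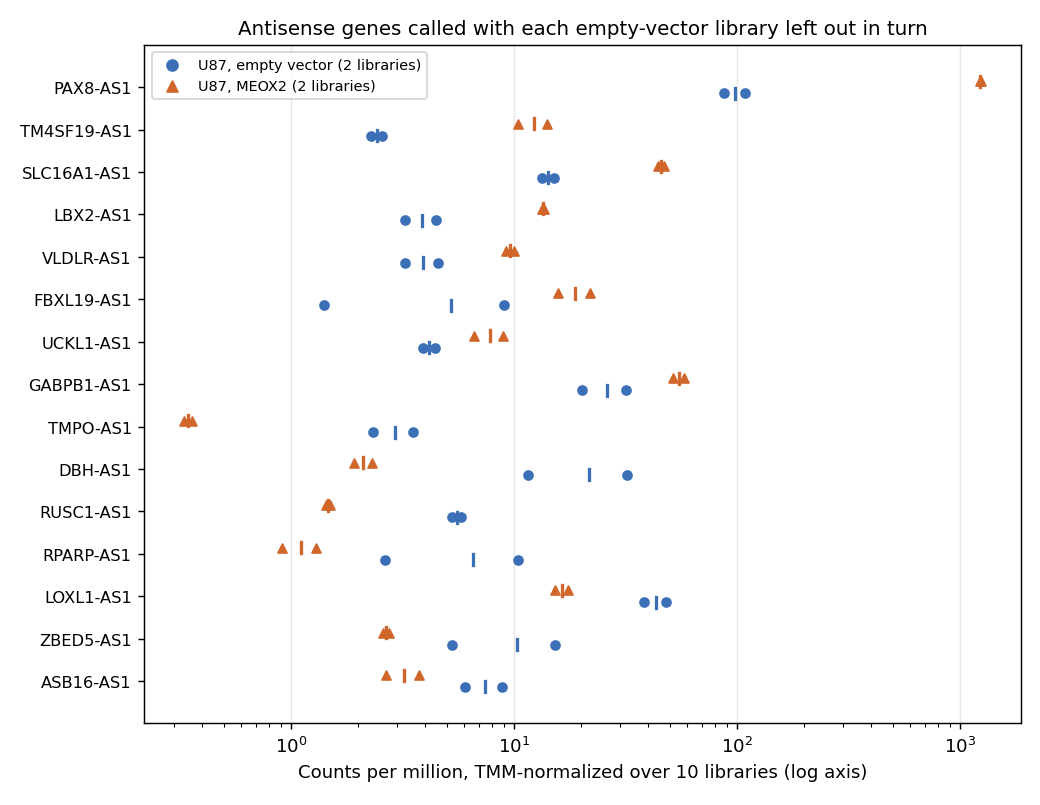
CPM (log axis) in the 2 empty-vector (circles) and 2 MEOX2 libraries (triangles) of U87 for 15 of the 35 antisense genes called with each empty-vector library left out in turn, the 8 higher and 7 lower ones with the largest smaller change; vertical bars are means. PAX8-AS1 lies at 109 and 87.9 and 1233 and 1240 CPM, and the circles of FBXL19-AS1, DBH-AS1 and RPARP-AS1 lie far apart.

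Knockdown and overexpression share no library, and 20 antisense genes passed both the knockdown test and the further rule in U87. Of these, 12 were higher in both lines, 2 were lower in both, 5 were higher after knockdown and lower after overexpression and OTUD6B-AS1 was the reverse. The 20 were 18.5% of the 108 tested by both, against 20.2% of 13194 genes. Of the 2670 genes called by both rules, 31.3% were higher in both, 35.8% lower in both, 14.9% higher after knockdown and lower after overexpression and 17.9% the reverse. LOXL1-AS1 was lower in both (-1.35 in SNB19 and -1.42 in U87), as was ZBED5-AS1 (-0.69 and -1.98). GABPB1-AS1 was higher in both (1.37 and 1.06), as were VLDLR-AS1 (1.88 and 1.28), SLC16A1-AS1 (0.91 and 1.66) and CKMT2-AS1 (1.16 and 0.84). TBX2-AS1, RPARP-AS1, MAPKAPK5-AS1, ARRDC1-AS1 and FOXD2-AS1 were higher after knockdown and lower after overexpression. The cell line and the kind of treatment cannot be told apart in this comparison.

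Among 97 pairs tested in U87, 59 had the same sign after overexpression (60.8%, exact 95% interval 50.4% to 70.6%). This interval treats pairs as independent, although they share the same 4 libraries. The Pearson correlation was 0.32 and the Spearman correlation 0.31. Of other neighbours in the table, 56.1% of 779 head to head pairs and 58.2% of 2372 overlapping pairs had the same sign. The ratio of antisense to partner was higher without overlap in 23 of 102 pairs and lower in 27. This was 49.0% in either direction, near the 47.5% of 1000 other head to head pairs and 47.0% of 3337 other overlapping pairs.

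The control libraries also let the lines themselves be set side by side. Between the scramble libraries of SNB19 and the empty-vector libraries of U87, 36 of the 120 antisense genes were higher and 19 lower in U87 by edgeR, or 45.8% in all, against 41.4% of 16158 genes tested. Higher were 30.0%, against 20%, and lower 15.8%, against 21.4%. Since the 120 were chosen by a sum over both lines, some entered through 1 line alone and had to differ, so the levels are given here as a description. Of 110 partners, 21 were higher and 31 lower in U87. The count of 55 antisense genes moved with that of all genes. It was 25 without scramble library 1 (all genes 20.8%), 26 without library 2 (21%) and 26 without library 3 (21.2%), and it was 84 without empty-vector library 1 (70.8%) and 93 without library 2 (79.4%). On FPKM, which has no TMM scaling, limma called 19 antisense genes higher and 26 lower, against 9.04% and 21.9% of all genes (30.9% in all), and the median of all genes shifted to -0.46. Line, vector, siRNA and virus differ together and cannot be told apart.

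Several antisense genes had few or 0 counts in U87. AFAP1-AS1 had 54.7, 51.6 and 56.8 CPM in SNB19 and 0.177 and 0.378 in U87 (log2 fold change -7.55). AFAP1, an actin filament binding protein whose introns hold 91.3% of the exon bases of AFAP1-AS1, had 62.0, 55.1 and 61.9 CPM in SNB19 and 31.0 and 77.1 in U87 (-0.15). AFAP1-AS1 was thus near 0 in both U87 libraries, while AFAP1 lay below its SNB19 levels in 1 of them and above in the other. IGFL2-AS1, which has 3 counts in all in U87, was 159-fold higher in SNB19 (95% counting interval 54.2 to 772), CCDC144NL-AS1, with 2 counts, 128-fold (35.2 to 1057), and ELFN1-AS1, with 3 counts, 71.4-fold (24.3 to 348). These intervals cover counting error only. ZNF667-AS1 and ZNF667 both had 0 counts in the U87 libraries, and ZNF667-AS1, at 4.45 to 6.02 CPM in SNB19, was at least 42.1-fold higher there, taking 3 counts over the group as the floor. PCED1B-AS1 (log2 fold change -4.15) and NNT-AS1 (-3.95) were also lower in U87, and NNT, a mitochondrial transhydrogenase, was lower with it (-3.14).

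MAGI2-AS3 was the reverse, with 3 counts in the scramble libraries and 29.4 and 36.5 CPM in U87, 535-fold higher (182 to 2601). MAGI2, a scaffold of cell junctions, was higher in U87 as well (1.96). PAX8-AS1 had 6.61, 6.89 and 7.35 CPM in SNB19 and 109 and 87.9 in U87 (log2 fold change 3.82), with PAX8 at 2.14. MSC-AS1 (3.76) and VPS9D1-AS1 (3.13) were also higher, and MSC, which encodes the basic helix-loop-helix factor musculin, had 0.172 to 0.542 CPM in SNB19 and 111 and 58.5 in U87. In each of these genes the lines did not overlap. The 10 antisense genes with the smallest adjusted p were the 10 named in these 2 paragraphs without ELFN1-AS1.

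**Figure D5:**
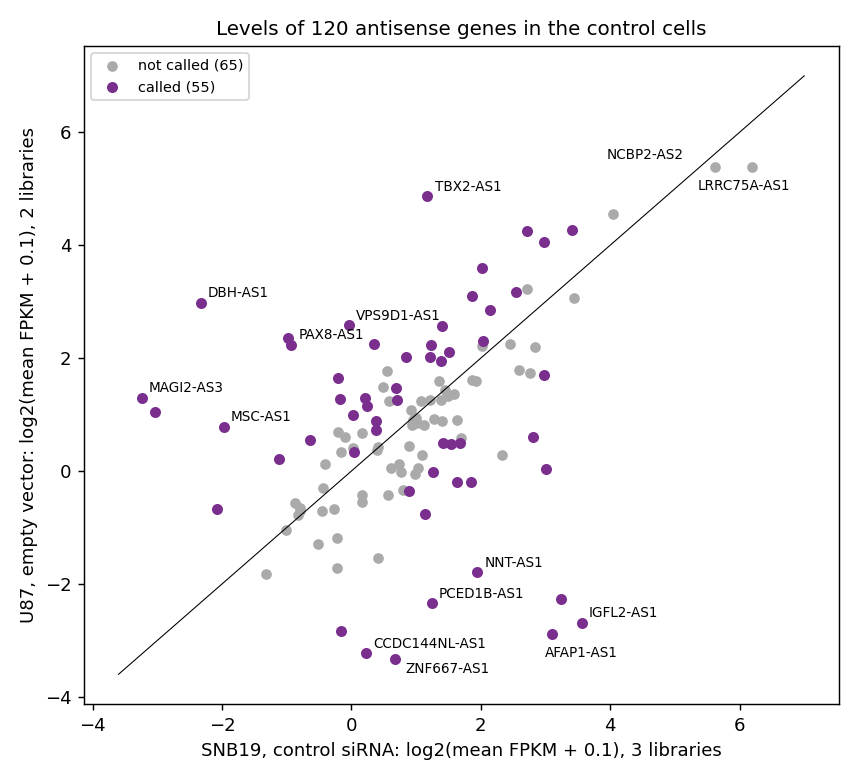
Mean level of the 120 antisense genes, as log2(FPKM + 0.1), in the scramble libraries of SNB19 (horizontal, 3 libraries) and the empty-vector libraries of U87 (vertical, 2 libraries), with genes called by edgeR in purple and the line of equal levels. MAGI2-AS3, DBH-AS1 and PAX8-AS1 lie far above the line and AFAP1-AS1, IGFL2-AS1, CCDC144NL-AS1 and ZNF667-AS1 far below it.

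Antisense genes were also set beside their partners between the lines. In 112 pairs, 76 had the same sign (67.9%, exact 95% interval 58.4% to 76.4%, which treats pairs as independent). The same sign was found in 63.9% of 894 other head to head pairs and 61.5% of 2984 other overlapping pairs. The member pairs had a Pearson correlation of 0.60 and a Spearman correlation of 0.56. Other head to head pairs had 0.61 and 0.37, and other overlapping pairs 0.46 and 0.33. Both genes passed in 29 pairs, 27 in the same direction. The 2 exceptions, in which the antisense gene was higher and the partner lower in U87, were CCDC18-AS1 (0.72) with CCDC18 (-1.6) and FOXD2-AS1 (1.01) with FOXD2 (-1.22). Opposite changes were thus 6.90% of the 29. This compares with 9.85% of the 132 other head to head pairs with both genes called and 16.7% of the 456 other overlapping pairs. The 33 pairs without shared exon bases gave 69.7% with the same sign, near the share over all pairs.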

How the data were processed

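Poly-A selected RNA of 10 libraries was sequenced as paired ends. The table deposited by the authors holds raw read counts per gene and FPKM values. HISAT2, HTSeq 0.11.2, DESeq2 1.26.0 and GRCh38 are named in the submitters' processing notes. The strand setting is not given in the sources used here. The members and gene lists were chosen with earlier results of these data known.

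Counts were tested per comparison with edgeR 4.0.16 (R 4.3.3; TMM scaling, filterByExpr, quasi-likelihood test, Benjamini-Hochberg over all genes tested, adjusted p under 0.05). SE is the log2 fold change divided by the root of F. limma 3.58.1 on log2(FPKM + 0.1), DESeq2 1.42.0, other scalings, filters, count limits and fits without each library were alternatives. On simulated counts edgeR recovered 191 of 200 changed genes for the knockdown, 178 for the overexpression and 180 for the control lines. The simulated spread was set alike for every gene and comparison and was not taken from these libraries. These counts therefore do not measure recovery in U87, whose empty-vector libraries correlated at 0.944. Positions come from GENCODE v29, windows from RefSeq (GRCh38.p14). Genes named were the 15 smallest adjusted p after knockdown, the 10 smallest between lines, the 10 highest in FPKM, list members and partners. Others, among them the U87 genes, were chosen after their values were seen. Total counts of 12533775 to 16560324 set the precision, and counting intervals cover counting error only.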

Additional observations from a re-analysis of the deposited data

How the results depend on the processing

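The knockdown call count of 65 antisense genes moved to 25 with all 10 libraries in 1 fit, 18 by the rule of unadjusted p under 0.05 and log2 fold change over 1, and 131 with a limit of 100 summed counts; that of 63 partners moved to 17 and 7 under the first 2. It stayed within 1.5 times without each library (56 to 64). Replicate numbers did not pair the SNB19 libraries (correlation of deviations 0.043, 0.0024 and 0.059), and scramble library 2 correlated best with knockdown library 1. The replicate block gave 64 antisense genes. After overexpression the count of 0 antisense genes and 0 partners became 8 and 7 by DESeq2, 33 and 31 with all 10 libraries, 16 and 10 without a low-count filter, 22 and 14 by the unadjusted rule, 35 and 33 by the further rule, 4 and 2 with the replicate block and 12 and 8 with the crossed replicate block, added after seeing the data (same-number correlation -0.162). Without 1 library it ran from 0 to 68 and from 0 to 74. Between lines, 55 antisense genes and 52 partners ran from 25 to 93 and from 23 to 101 without 1 library, and the antisense count was 109 and 33 with limits of 100 and 1000. URB1-AS1, which did not pass after knockdown, turned from -0.054 to 0.028 by limma on FPKM and ran from -0.142 to 0.070 without 1 library, the latter without scramble library 1. The share of pairs with the same sign moved less than its interval under each alternative run. That interval treats pairs that share libraries as independent, so it does not measure how stable the share is. Counts over all genes moved as well. After overexpression, 1951 genes were higher and 2587 lower of 17312 with all 10 libraries in 1 fit. Without a low-count filter, 611 were higher and 1252 lower of 27450. The replicate block gave 211 and 257 of 14180, the crossed block 506 and 646, and DESeq2 called 6.34%. A limit of 100 takes in more antisense genes and one of 1000 fewer, so those counts are over other sets. The cause of these moves was not tested.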

Other observations

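Of 808 genes with the same form of name and under 500 summed counts, 225 were tested after MEOX2 knockdown. By edgeR 72 rose (32.0%) and 8 fell (3.56%), against 27.4% and 28.5% of all genes tested. In either direction 35.6% passed, against 55.9% of all genes. Of the listed antisense RNAs with other kinds of name, 6 were tested after knockdown. HOTTIP, from the end of the HOXA cluster, rose by 1.39 on the log2 scale, on 3, 1 and 9 counts in the scramble libraries and 11, 11 and 13 after the siRNA. TUG1 fell by 0.28, and HOTAIRM1 (-0.66), KCNQ1OT1 (-0.31), HAGLR (-0.14) and ZFAS1 (0.19) did not pass. Between the control lines KCNQ1OT1, the antisense RNA of an imprinted potassium channel locus, had a log2 fold change of -2.18 in U87 against SNB19, and HAGLR, from the HOXD cluster, one of -0.78.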
